A study of Mus musculus with 32 samples.

Results

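The homologous recombination, Fanconi anemia and checkpoint genes were described here as a set of 37 genes, given as a list of gene names with no threshold on their values, out of 55401 gene identifiers counted in mouse epidermis. All 37 were among the 15546 genes that reached 1 cpm (the count of a gene scaled to a common library size) in at least 1 mouse, so no member was lost to the filter on low values. Messenger RNA was sequenced from the dorsal epidermis, separated from the dermis, of hairless SKH-1/SV129/BL6/J mice aged 10 to 14 weeks. The 32 mice formed 8 groups of 4, given by genotype (wild type or Ppard-/-), sex and treatment, which was either a single UV dose of 120 mJ/cm2 with collection at 24 h or no UV with collection at 0 h. Males and females were weighted equally, so each genotype had 8 unexposed and 8 UV-exposed mice. Ppard encodes the lipid-sensing nuclear receptor PPARβ/δ. Reads on Ppard remained in the mice labelled Ppard-/- (67.2 to 255 cpm, against 85.2 to 317 cpm in wild type), and since the count covers the whole gene it does not check a deletion of a part of it.

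Homologous recombination copies the sister chromatid to mend a broken DNA end. The MRE11-RAD50-NBS1 complex binds the end and, with CtIP and EXO1, trims it to single-stranded DNA, BRCA1-BARD1 and PALB2 bring in BRCA2, and the strand is then exchanged with the sister, which XRCC2, XRCC3 and RAD54 assist. The Fanconi core complex attaches ubiquitin to FANCI-FANCD2 when a fork meets a crosslink, ATM and ATR are the kinases that sense breaks and stalled forks, and CHK1 and CHK2 carry their signal to the cell cycle. In epidermis, UV photoproducts are mainly removed by excision repair, but forks that meet them stall, and many of these genes are transcribed most in cells passing through S and G2 phase.

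Between 22919428 and 40653581 reads per mouse fell on genes (median 27600228). The members had from 16.2 to 1505 reads per mouse on average, and 36 of 37 had at least 1 read in every mouse. Some libraries stood apart. Unexposed wild-type female 61F had the highest mean level of the 16 genes listed for G2 and M phase in its group (5.42 as mean log2(cpm + 1), next mouse 4.72), and UV-exposed Ppard-/- female 66F had the highest in its group (4.83, next 4.29). UV-exposed Ppard-/- female 54F held 2154 cpm of 6 dermal fibroblast markers, against 1.77 to 97.3 cpm in the other 31 mice. The main counts of called members that rest on these mice are given below with and without them. Counts of the other gene lists are given with all mice only. The labelled tissue was checked with 7 basal keratinocyte markers, which summed to 7325 to 17940 cpm in unexposed and 16950 to 29170 cpm in UV-exposed wild-type mice, and with 8 suprabasal markers, which summed to 74620 to 84010 cpm and 15760 to 27730 cpm, respectively. In Ppard-/- mice the basal sum lay between 4854 and 13120 cpm without UV and between 15460 and 31550 cpm after UV. The suprabasal sum there lay between 70720 and 104400 cpm without UV and between 10490 and 31290 cpm after UV. Basal markers did not move alike: 3 of 7 were called higher and 2 lower in wild type, and 5 and 1 in Ppard-/- mice. Of the 8 suprabasal markers, 7 were called lower in wild type and 8 in Ppard-/- mice. Of 8 T cell markers 7 fell in each genotype, and of 7 Langerhans and dendritic cell markers 7 fell in wild type and 6 in Ppard-/- mice. Endothelial markers (4 tested) went the other way, with 4 called higher in wild type and 3 in Ppard-/- mice. Macrophage and monocyte markers (6) had 3 higher and 1 lower, and 4 and 0. Neutrophil markers (4 tested) had 2 and 0, and 3 and 1. Skeletal muscle markers (5) were not called, and summed to 8.88 to 1386 cpm in unexposed and 3.97 to 2246 cpm in UV-exposed wild-type mice. Over all genes tested, 34.5% were called higher and 36.5% lower in wild type, and 37.3% and 33.5% in Ppard-/- mice. The part of these shifts in the results below was not tested.

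The levels of the members in unexposed wild-type epidermis spanned 31.5 times when counted per kilobase of exon. Nbn, which encodes the NBS1 subunit, led with 8.0 ± 0.575 cpm per kilobase (SD, n = 8), and Rad51b, a strand exchange gene, was the lowest with 0.254 ± 0.100 cpm per kilobase. Of the 36 neighbouring pairs in this order, only Mre11a and Mus81 did not overlap in their 8 mice, so most neighbours cannot be ranked. After UV the order was rearranged. On the same scale Brca2 moved from place 26 of 37 (0.559 ± 0.0963 cpm per kilobase) to place 8 (2.30 ± 0.336), Xrcc2 from place 33 (0.412 ± 0.111) to place 9 (2.21 ± 0.836), and Fancb from place 4 (5.01 ± 1.00) to place 12 (1.31 ± 0.333).

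In wild-type epidermis more of these genes fell than rose after UV. With edgeR's quasi-likelihood test, 21 of 37 members were called lower (adjusted P value under 0.05), against 36.5% of all genes tested, and 6 were called higher, against 34.5% of all genes. The median log2 fold change was -0.56 over the members and -0.01 over all genes. In Ppard-/- epidermis 11 members were called lower and 10 higher, where 33.5% and 37.3% of all genes were called lower and higher, and the median of the members was 0.05 against 0.09 over all genes. With a fold change over 1.5 as well, 17 fell and 3 rose in wild type, where 26.1% and 21.8% of all genes did so, and 10 fell and 7 rose in Ppard-/- mice, where 22.8% and 24.8% did so. Without mouse 61F, 16 members were called lower and 6 higher in wild type and the median was -0.31. In Ppard-/- mice 11 were called higher and 11 lower without mouse 54F, and 10 and 11 without mouse 66F. The Ppard-/- median was 0.13 without mouse 54F, -0.07 without mouse 66F and 0.20 without unexposed female 62F. A lower level in whole epidermis can be fewer cells of a type or less RNA per cell, which cannot be told apart here.

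**Figure D1:**
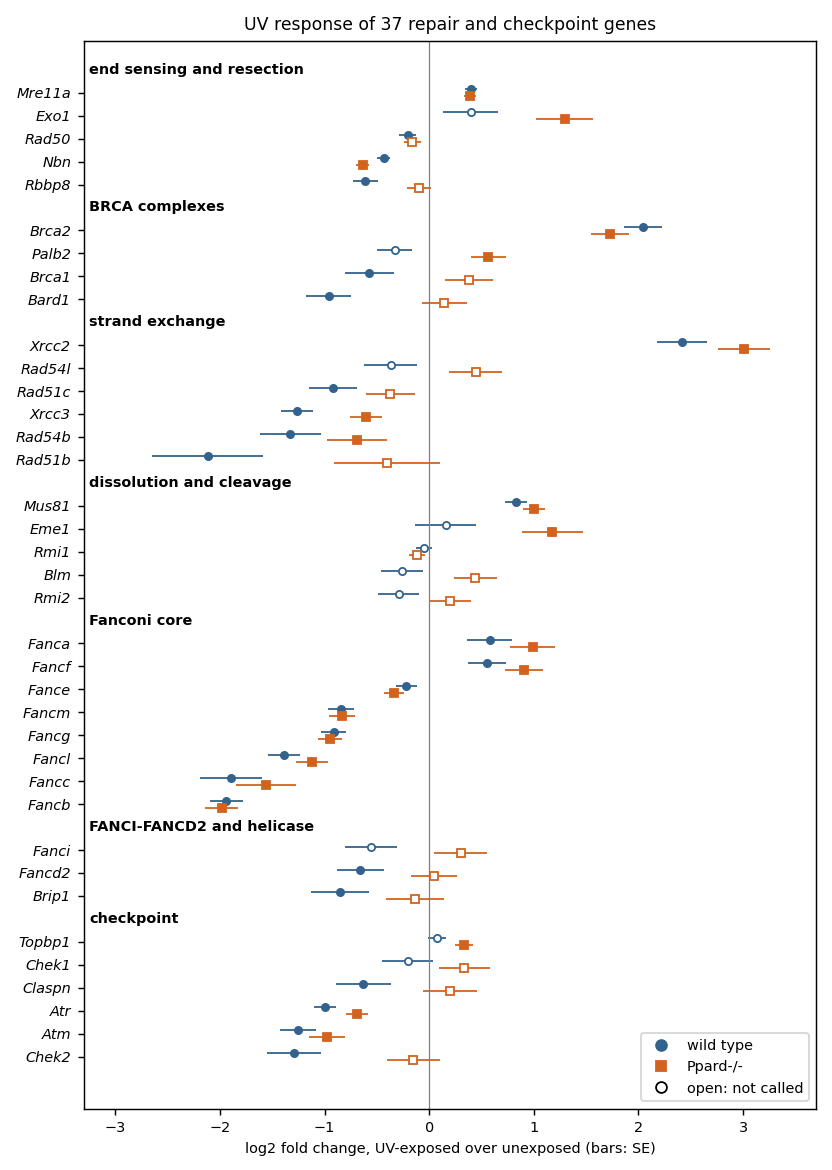
The 37 members are grouped by role, with the log2 fold change of UV-exposed over unexposed mice on the horizontal axis, in wild type (circles) and Ppard-/- mice (squares), bars for the SE and open symbols for changes that were not called. Xrcc2 and Brca2 lie above 1.5 on this scale in both genotypes, Fancb and Fancc lie below -1.5 in both, and most members in between are further to the left in wild type.

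The calls of both genotypes fell into 5 combinations. Brca2, Fanca, Fancf, Mre11a, Mus81 and Xrcc2 rose in both, and Atm, Atr, Fancb, Fancc, Fance, Fancg, Fancl, Fancm, Nbn, Rad54b and Xrcc3 fell in both. Bard1, Brca1, Brip1, Chek2, Claspn, Fancd2, Rad50, Rad51b, Rad51c and Rbbp8 were called lower in wild type and not called in Ppard-/- mice. Eme1, Exo1, Palb2 and Topbp1 were called higher in Ppard-/- mice and not called in wild type. Blm, Chek1, Fanci, Rad54l, Rmi1 and Rmi2 were called in neither. The share of all genes in each combination was not counted, so these groups cannot be set against it. The 8 UV-exposed mice lay wholly above the 8 unexposed for 4 members and wholly below for 8 members in wild type, where 21.3% and 22.1% of all genes did so. In Ppard-/- mice 5 members lay above and 7 below, where 18.6% and 16.5% of all genes did so.

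Among the strand exchange genes, Xrcc2 rose the most of all members in both genotypes. XRCC2 works in strand exchange as part of a complex with the RAD51B and RAD51C proteins, and its gene (ENSMUSG00000028933) lies on chromosome 5 at 25689812 to 25705825 of GRCm38. It was at 1.54, 2.02 and 3.25 cpm (lowest, median and highest of 8) in unexposed and 6.07, 10.4 and 19.3 cpm in UV-exposed wild-type mice. In Ppard-/- mice it was at 1.24, 1.46 and 2.40 cpm unexposed and at 7.64, 11.1 and 25.1 cpm after UV. Every UV-exposed mouse lay above every unexposed mouse of its genotype. The rise was 5.34-fold in wild type (log2 2.42 ± 0.24 SE, adjusted P value 6.7e-10 by edgeR) and 8.03-fold in Ppard-/- mice (log2 3.01 ± 0.25, adjusted P value 1.69e-11). Its relatives Xrcc3, Rad51b and Rad51c were not called higher. Xrcc3 fell in both genotypes (log2 -1.26 ± 0.15 and -0.60 ± 0.15), Rad51c was called lower in wild type (-0.92 ± 0.23) and not in Ppard-/- mice (-0.37 ± 0.23, adjusted P value 0.153 by edgeR), and Rad51b, the sparsest member, was called lower in wild type (-2.12 ± 0.53), where the lowest UV-exposed mouse had 0 reads, and not in Ppard-/- mice (-0.41 ± 0.51, adjusted P value 0.485 by edgeR). Of the RAD54 motor proteins, Rad54b fell in both (-1.33 ± 0.29 and -0.69 ± 0.29), and its call in Ppard-/- mice was lost under 8 of the 39 alternatives. Its exons overlap Fsbp on the same strand over 35.8% of their length. Rad54l was not called in either.

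BRCA2 acts on single-stranded DNA before strand exchange, and in wild type Brca2 (ENSMUSG00000041147, chromosome 5, 150522630 to 150570329) parted from its BRCA partners. It was at 6.02, 7.74 and 10.1 cpm in unexposed and 22.9, 32.5 and 36.3 cpm in UV-exposed wild-type mice, and at 3.24, 6.95 and 12.6 cpm and 18.4, 25.9 and 36.9 cpm in Ppard-/- mice. The groups did not overlap in either genotype. The rise was 4.12-fold (log2 2.04 ± 0.19, adjusted P value 1.33e-10 by edgeR) and 3.31-fold (1.73 ± 0.18, adjusted P value 3.08e-09). Brca1, which with Bard1 forms the ubiquitin ligase that acts before BRCA2, was at 3.65, 6.5 and 15.8 cpm in unexposed and 2.91, 5.06 and 6.0 cpm in UV-exposed wild-type mice, and at 3.17, 5.09 and 7.64 cpm and 4.56, 6.19 and 13.3 cpm in Ppard-/- mice. These groups overlapped. Brca1 was called lower in wild type (log2 -0.57 ± 0.23, adjusted P value 0.0302 by edgeR), but not without mouse 61F (-0.28, adjusted P value 0.226), a call lost in all under 8 of 39 alternatives, and was not called in Ppard-/- mice (0.38 ± 0.23, adjusted P value 0.144).

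Bard1 was at 2.21, 3.04 and 7.36 cpm in unexposed and 1.16, 1.83 and 2.42 cpm in UV-exposed wild-type mice. It was called lower there (log2 -0.96 ± 0.22, adjusted P value 0.000262 by edgeR), with and without mouse 61F (-0.76, adjusted P value 0.00191). In Ppard-/- mice Bard1 was at 1.41, 1.93 and 3.71 cpm unexposed and 1.74, 2.16 and 5.02 cpm after UV, and was not called (0.14 ± 0.21, adjusted P value 0.563 by edgeR). Palb2, the bridge from BRCA1 to BRCA2, was not called in wild type (-0.33 ± 0.17, adjusted P value 0.0824 by edgeR), at 2.06, 2.77 and 4.60 cpm unexposed and 1.66, 2.41 and 3.07 cpm after UV. Palb2 was called higher in Ppard-/- mice (0.57 ± 0.17, adjusted P value 0.00423 by edgeR), from 1.68, 1.99 and 2.46 cpm to 2.11, 2.38 and 5.21 cpm, and also without mouse 66F (0.47, adjusted P value 0.0165).

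**Figure D2:**
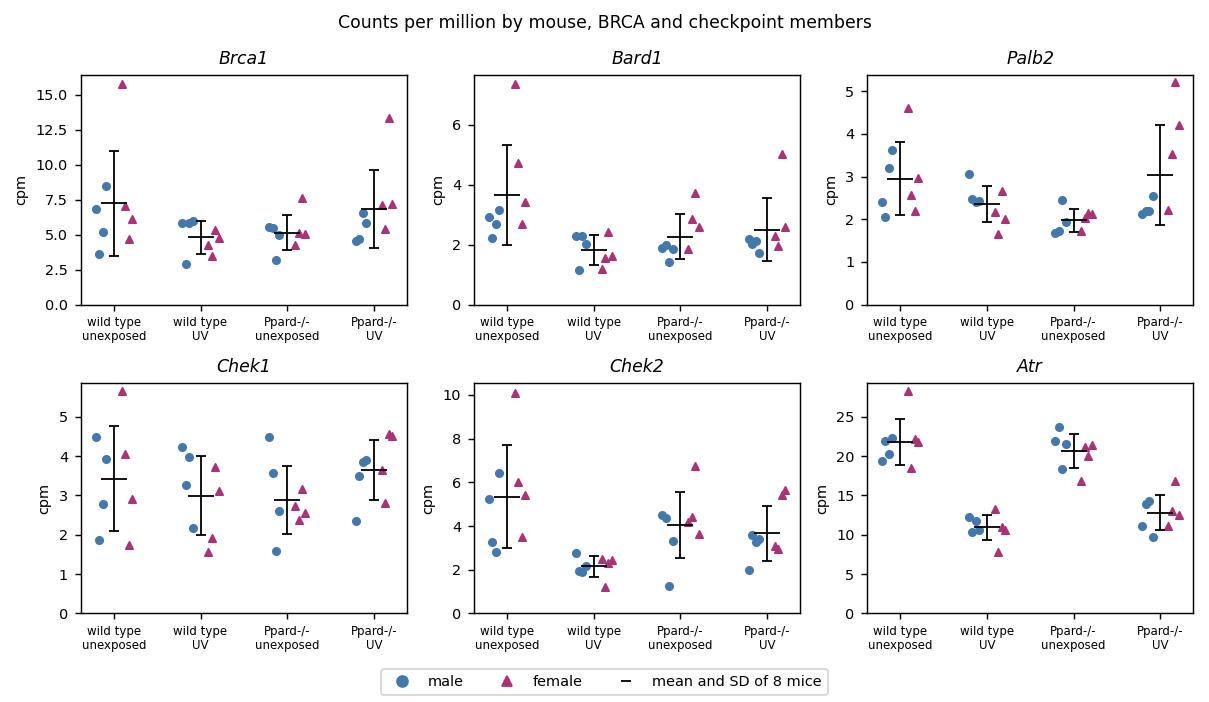
Levels in cpm of Brca1, Bard1, Palb2, Chek1, Chek2 and Atr in each mouse (circles for males, triangles for females), with the mean and SD of 8 mice as bars. The single high wild-type unexposed female in the Brca1, Bard1, Palb2, Chek1, Chek2 and Atr panels is mouse 61F, and the groups of Atr in wild type do not overlap.

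Letters typical of sites of the E2F factors, which switch on many S-phase genes, were searched in the 250 bases before the start that RefSeq gives for each gene (GRCm38.p6), on both strands. A promoter sequence was at hand for 29 members and 11323 of the genes tested. TTTCCCGC was found in 4 members (13.8%) and in 1.79% of all genes, TTTCGCGC in 1 member (3.45%) and in 0.556% of genes, and TTTGGCGC and TTTGCCGC in none of the members and in 0.830% and 0.486% of genes. The looser TTTNNCGC, which includes these, was found in 6 members (20.7%) and in 7.69% of genes. TTTGAA, the letters of the CHR element of G2 and M phase genes, was found in Bard1 alone (3.45% of members, 13.3% of genes), and CCAAT in 17 members (58.6%, against 39.8% of genes). The promoters with the stricter letters are shown because their genes moved in different ways, with the match in capitals (GCGGGAAA and GCGCGAAA are the matches on the other strand): Brca2 rose in both genotypes, Topbp1 was called higher in Ppard-/- mice, Bard1 and Chek2 were called lower in wild type, and Fancg fell in both.
Brca2 (chr5:150522371-150522620, plus strand): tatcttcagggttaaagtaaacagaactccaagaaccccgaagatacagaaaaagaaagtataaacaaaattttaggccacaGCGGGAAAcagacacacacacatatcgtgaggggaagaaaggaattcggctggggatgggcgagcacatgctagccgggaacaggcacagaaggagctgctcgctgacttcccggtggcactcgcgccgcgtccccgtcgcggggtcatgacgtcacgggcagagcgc
Topbp1 (chr9:103305077-103305326, plus strand): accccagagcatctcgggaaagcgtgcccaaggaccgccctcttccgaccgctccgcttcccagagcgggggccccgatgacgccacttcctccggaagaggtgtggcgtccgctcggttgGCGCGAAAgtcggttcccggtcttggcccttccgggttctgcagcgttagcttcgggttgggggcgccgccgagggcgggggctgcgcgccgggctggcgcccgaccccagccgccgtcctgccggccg
Bard1 (chr1:71102973-71103222, minus strand): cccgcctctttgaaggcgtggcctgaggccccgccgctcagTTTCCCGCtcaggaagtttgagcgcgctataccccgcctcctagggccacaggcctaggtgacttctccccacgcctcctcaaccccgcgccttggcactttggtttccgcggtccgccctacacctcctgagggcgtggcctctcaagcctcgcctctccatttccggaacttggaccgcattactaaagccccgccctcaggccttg
Chek2 (chr5:110839733-110839982, plus strand): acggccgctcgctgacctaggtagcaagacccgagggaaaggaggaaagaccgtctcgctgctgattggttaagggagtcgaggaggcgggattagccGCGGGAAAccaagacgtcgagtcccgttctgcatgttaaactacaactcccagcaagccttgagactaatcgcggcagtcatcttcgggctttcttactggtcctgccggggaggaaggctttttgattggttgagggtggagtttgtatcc
Fancg (chr4:43010302-43010551, minus strand): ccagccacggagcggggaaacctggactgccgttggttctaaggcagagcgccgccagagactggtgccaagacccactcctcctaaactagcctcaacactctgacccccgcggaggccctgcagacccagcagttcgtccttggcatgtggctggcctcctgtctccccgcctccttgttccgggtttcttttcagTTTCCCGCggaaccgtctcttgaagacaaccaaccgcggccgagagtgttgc
A match is a description of the letters and not a bound site. The RefSeq start can lie inside the gene as GENCODE M21 draws it: of the 250 bases, 205 lay inside the GENCODE gene for Fancg, 174 for Bard1, 112 for Topbp1, 4 for Chek2 and 0 for Brca2. The match of Fancg lay inside its GENCODE gene, and those of the other 4 lay before it.

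In the Fanconi core 6 of 8 members fell and 2 rose in each genotype, where 36.5% of all genes fell and 34.5% rose in wild type and 33.5% and 37.3% in Ppard-/- mice. Fancb (ENSMUSG00000047757, chromosome X, 164980592 to 164997272), the scaffold of the catalytic module, was at 8.83, 15.6 and 18.5 cpm in unexposed and 2.35, 3.96 and 5.19 cpm in UV-exposed wild-type mice, and at 11.6, 15 and 21.4 cpm and 3.40, 3.76 and 4.99 cpm in Ppard-/- mice. The groups did not overlap in either genotype. Fancb was 3.83 times lower in wild type (log2 -1.94 ± 0.16, adjusted P value 1.2e-11 by edgeR) and 3.96 times lower in Ppard-/- mice (-1.98 ± 0.16, adjusted P value 8.52e-12). Fancl, the ubiquitin ligase of the same module (chromosome 11, 26386135 to 26471876), was at 4.65, 6.01 and 6.63 cpm in unexposed and 1.09, 2.13 and 3.21 cpm in UV-exposed wild-type mice, and at 4.29, 5.12 and 6.62 cpm and 1.53, 2.5 and 3.48 cpm in Ppard-/- mice. It fell by 1.39 ± 0.15 and 1.12 ± 0.15 on the log2 scale, without overlap of the groups.

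Fancc (chromosome 13, 63285043 to 63497278) was at 4.12, 9.19 and 12.4 cpm in unexposed and 0.400, 2.35 and 4.63 cpm in UV-exposed wild-type mice, and at 5.67, 8.43 and 11.8 cpm and 1.53, 3.27 and 4.62 cpm in Ppard-/- mice. It fell by 1.90 ± 0.30 and 1.56 ± 0.29 on the log2 scale (adjusted P values 1.92e-06 and 2.87e-05 by edgeR), and the groups overlapped in wild type only. Its partner Fancf went the other way, from 0.751, 1.27 and 1.86 cpm to 1.49, 2.03 and 2.51 cpm in wild type and from 0.659, 1.25 and 1.60 cpm to 1.8, 2.25 and 3.13 cpm in Ppard-/- mice (log2 0.56 ± 0.18 and 0.91 ± 0.18). Fance, also of the core, fell by 0.22 ± 0.10 in wild type (adjusted P value 0.0459 by edgeR) and by 0.34 ± 0.10 in Ppard-/- mice (adjusted P value 0.00294). The wild-type call of Fance sat at the threshold and was lost under 27 of the 39 alternatives. Fance is the neighbour of Ppard on chromosome 17, where genotype and flanking DNA cannot be told apart, and its difference between unexposed genotypes was 0.12 ± 0.10 (adjusted P value 0.805 by edgeR).

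Fanca and Fancg, which form the third module, also parted. Fanca rose from 2.36, 3.25 and 6.76 cpm to 3.31, 5.31 and 8.0 cpm in wild type (log2 0.58 ± 0.21, adjusted P value 0.0180 by edgeR) and from 1.98, 2.81 and 5.15 cpm to 3.65, 6.62 and 8.88 cpm in Ppard-/- mice (0.99 ± 0.22, adjusted P value 0.000186). Fancg fell by 0.91 ± 0.12 and 0.95 ± 0.12, and Fancm, the translocase that anchors the complex on DNA, by 0.84 ± 0.12 and 0.83 ± 0.12. Some members share exon bases with a gene on the opposite strand. The strand setting of the counting is not given in the sources used here. Whether reads in the shared bases were counted to the member, to the partner or to neither is therefore not known. The share of the member's exon length was 16% for Fanci (partner Polg), 15.4% for Rad54l (Lrrc41), 15% for Fancf (Gas2), 13.7% for Fancl (Vrk2), 10.5% for Fanca (Zfp276) and 8% for Eme1 (Lrrc59). The partners of Eme1, Fanci, Rad54l and Fanca were counted far more than the members, with medians of 3124.5, 1898.5, 1856 and 897 reads per mouse against 49.5, 69, 91 and 129. Downstream of the core, Fancd2 was called lower in wild type (-0.66 ± 0.22), but not without mouse 61F (-0.46, adjusted P value 0.0594 by edgeR), and not called in Ppard-/- mice (0.05 ± 0.22, adjusted P value 0.855 by edgeR), Fanci was not called in either, and the helicase gene Brip1 was called lower in wild type (-0.85 ± 0.28).

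**Figure D3:**
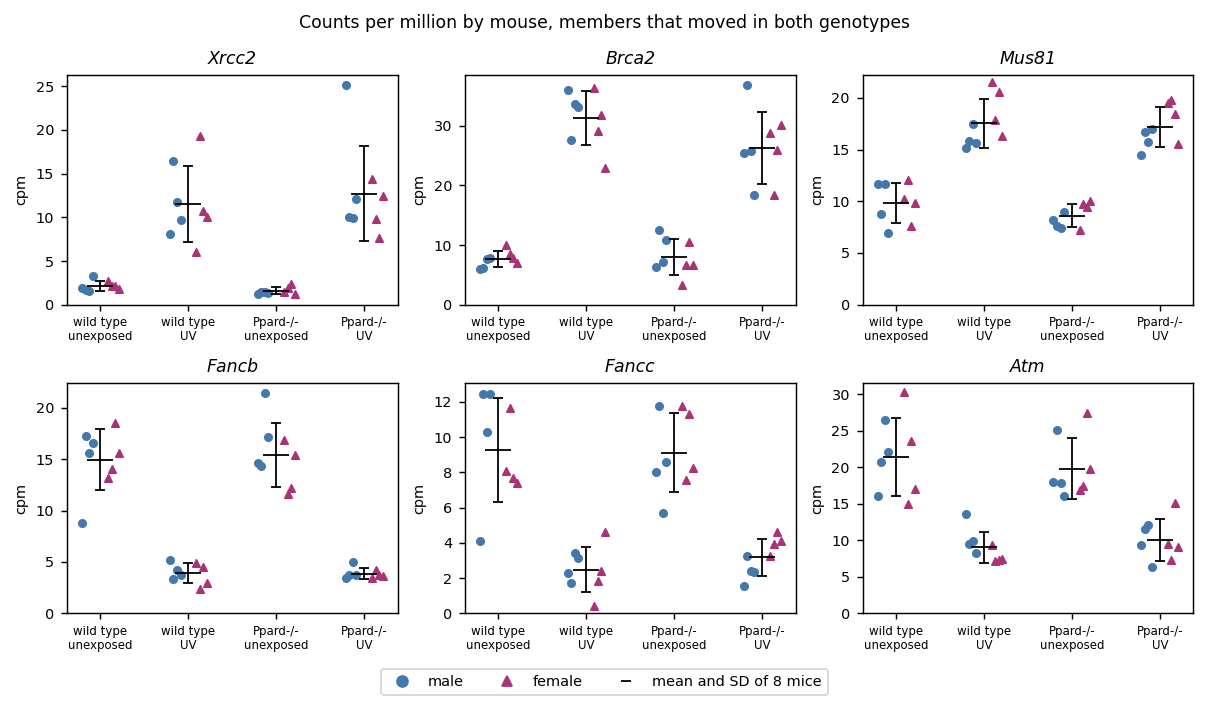
Levels in cpm of Xrcc2, Brca2, Mus81, Fancb, Fancc and Atm in each mouse (circles for males, triangles for females), with the mean and SD of 8 mice as bars. Xrcc2, Brca2 and Mus81 are higher in all 8 UV-exposed mice than in all 8 unexposed mice of each genotype, and Fancb and Atm are lower in all 8.

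The MRE11-RAD50-NBS1 complex showed a similar split. Mre11a was at 20.1, 22.1 and 25.2 cpm in unexposed and 27.4, 29.6 and 32.2 cpm in UV-exposed wild-type mice and at 20.5, 21.7 and 24.3 cpm and 25.9, 28.8 and 31.8 cpm in Ppard-/- mice, a small rise without overlap (log2 0.40 ± 0.06 and 0.39 ± 0.06). Nbn fell from 18.7, 20.1 and 23.1 cpm to 12.8, 15.2 and 16.5 cpm in wild type and from 18.9, 20.9 and 22.5 cpm to 11.5, 13.6 and 14.5 cpm in Ppard-/- mice, without overlap (-0.44 ± 0.06 and -0.64 ± 0.06). Rad50 had values of -0.21 ± 0.08 and -0.16 ± 0.08, called in wild type alone, and not called there in 14 of 39 alternatives. Of the resection genes, Rbbp8, which encodes CtIP, was called lower in wild type (-0.61 ± 0.12), and Exo1, the exonuclease of long resection, was called higher in Ppard-/- mice (1.29 ± 0.27).

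Of the genes that dissolve or cut joined molecules, Mus81 rose in both genotypes. MUS81 is the nuclease that cuts stalled forks and joints with EME1. Mus81 (chromosome 19, 5482345 to 5488402) was at 6.98, 10.0 and 12.0 cpm in unexposed and 15.1, 16.9 and 21.5 cpm in UV-exposed wild-type mice, and at 7.27, 8.56 and 10.0 cpm and 14.5, 16.9 and 19.8 cpm in Ppard-/- mice. The groups did not overlap, and the rise was 1.78-fold in wild type (log2 0.83 ± 0.10, adjusted P value 5.13e-08 by edgeR) and 2.00-fold in Ppard-/- mice (1.00 ± 0.10, adjusted P value 1.91e-09). Eme1 was called higher in Ppard-/- mice (1.18 ± 0.30, adjusted P value 0.000869 by edgeR) and not in wild type (0.16 ± 0.29). Blm, Rmi1 and Rmi2, of the helicase complex that dissolves double junctions, were called in neither genotype.

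Both apical checkpoint kinases fell. Atm (chromosome 9, 53439149 to 53536740) was at 15, 21.4 and 30.3 cpm in unexposed and 7.16, 8.85 and 13.6 cpm in UV-exposed wild-type mice, and at 16, 17.9 and 27.5 cpm and 6.31, 9.40 and 15.2 cpm in Ppard-/- mice. The groups did not overlap, and Atm was 2.39 times lower in wild type (log2 -1.25 ± 0.17, adjusted P value 2.66e-07 by edgeR) and 1.97 times lower in Ppard-/- mice (-0.98 ± 0.17, adjusted P value 1.19e-05). Atr fell from 18.4, 21.8 and 28.2 cpm to 7.78, 10.8 and 13.2 cpm in wild type (-0.995 ± 0.107, adjusted P value 3.64e-09 by edgeR) and from 16.8, 21.3 and 23.8 cpm to 9.67, 12.8 and 16.9 cpm in Ppard-/- mice (-0.69 ± 0.11, adjusted P value 2.01e-06). The groups of Atr overlapped in Ppard-/- mice by a single pair of mice.

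The effector kinases differed from each other. Chek2, which acts after ATM, was at 2.81, 5.33 and 10.1 cpm in unexposed and 1.19, 2.23 and 2.79 cpm in UV-exposed wild-type mice, without overlap (log2 -1.29 ± 0.26, adjusted P value 5.65e-05 by edgeR), and was also called without mouse 61F (-1.09, adjusted P value 0.000357). In Ppard-/- mice it was at 1.27, 4.28 and 6.75 cpm unexposed and 1.99, 3.33 and 5.63 cpm after UV and was not called (-0.15 ± 0.25, adjusted P value 0.607 by edgeR). Chek1, which acts after ATR, was called in neither genotype, at 1.74, 3.42 and 5.65 cpm and 1.56, 3.19 and 4.24 cpm in wild type (-0.21 ± 0.24, adjusted P value 0.457) and 1.58, 2.67 and 4.48 cpm and 2.36, 3.76 and 4.56 cpm in Ppard-/- mice (0.34 ± 0.24, adjusted P value 0.214 by edgeR). Topbp1, which encodes an activator of ATR, was called higher in Ppard-/- mice (0.33 ± 0.09, adjusted P value 0.00136 by edgeR). Claspin, the mediator between ATR and CHK1 (listed as Claspn, annotated as Clspn), was called lower in wild type (-0.63 ± 0.26, adjusted P value 0.0344) but not without mouse 61F (-0.35, adjusted P value 0.211), a call lost in all under 10 of 39 alternatives.

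No member passed the test of the difference in UV response between the genotypes (0 of 37 by edgeR, where 0.765% of all genes were called). At an unadjusted P value under 0.05 there were 16 of 37 members (43.2%) and 19.6% of all genes. DESeq2 called 3, namely Bard1, Chek2 and Palb2, where it called 5.09% of all genes, and limma-trend called 0, against 0.618% of all genes. The smallest P values were those of Palb2 (log2 difference, Ppard-/- minus wild type, 0.90 ± 0.24, adjusted P value 0.0651 by edgeR), Bard1 (1.10 ± 0.30, adjusted P value 0.0724) and Chek2 (1.14 ± 0.36, adjusted P value 0.0992). Without mouse 61F these were 0.74 (adjusted P value 0.134), 0.92 (0.141) and 0.96 (0.173), respectively. The difference was positive for 30 of 37 members, with a median of 0.51 against 0.04 over all genes, and the median was 0.39 without mouse 61F and 0.44 without mouse 66F. Hence a call in one genotype and not in the other, as for Brca1 or Exo1, did not show that the genotypes differed.

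No member was called between the genotypes at either state. Without UV, 0 of 37 members were called between Ppard-/- and wild-type mice by edgeR, where 0.206% of all genes were called, and 6 (16.2%) had an unadjusted P value under 0.05, against 8.52% of all genes. DESeq2 and limma-trend called 0 as well, against 0.502% and 0.206% of all genes. The median difference was -0.25, with 31 of 37 members lower in Ppard-/- mice. Palb2 (-0.58 ± 0.17, adjusted P value 0.250 by edgeR), Bard1 (-0.67 ± 0.21, adjusted P value 0.306) and Fanci (-0.70 ± 0.25, adjusted P value 0.407) had the smallest P values. Fanci, which encodes the partner of FANCD2, was at 1.88, 2.94 and 6.82 cpm in wild-type and 1.33, 1.87 and 4.45 cpm in Ppard-/- unexposed mice. After UV, again 0 of 37 were called by edgeR, where 3.31% of all genes were called, and 7 (18.9%) had an unadjusted P value under 0.05, against 20.1% of all genes. DESeq2 called Nbn (-0.19) and Xrcc3 (0.48), where it called 7.18% of all genes, and limma-trend called 0, against 1.67%. The median was 0.23, with 30 of 37 members higher in Ppard-/- mice. The median without UV was -0.12 without mouse 61F.

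Each sex was also tested on its own. In wild-type males 6 members were called higher and 13 lower (29.8% and 31.1% of all genes), and in wild-type females 4 higher and 19 lower (30.1% and 31.1%). In Ppard-/- males 8 were called higher and 10 lower (30.9% and 30.9%), and in Ppard-/- females 11 higher and 9 lower (34% and 26.7%). Brca2, Mre11a, Mus81 and Xrcc2 were higher and Atm, Atr, Fancb, Fancc, Fancg, Fancl, Fancm, Nbn and Xrcc3 lower in each of the 4 comparisons. The share of all genes called alike in all 4 was not counted. Without mouse 61F, 14 members were called lower in wild-type females, and without mouse 66F, 7 were called higher in Ppard-/- females. No member passed the test of the difference in UV response between females and males in wild type (0 of 37 by edgeR, DESeq2 and limma-trend, where these called 0.0%, 0.0193% and 0.0% of all genes), and Bard1 alone had an unadjusted P value under 0.05 (2.7% of members and 2.7% of all genes). None passed it in Ppard-/- mice (0 of 37 by all 3 tools, where these called 0.0%, 0.225% and 0.0% of all genes), and Fancl and Palb2 had an unadjusted P value under 0.05 (5.41% of members, 9.53% of all genes).

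Other genes of the pathways were counted from lists of pathway genes, with medians to be read against those over all genes (-0.01 in wild type and 0.09 in Ppard-/- mice). The counts are to be read against the shares of all genes. These were 34.5% higher and 36.5% lower in wild type and 37.3% higher and 33.5% lower in Ppard-/- mice. Of 22 further homologous recombination and resection genes, 3 rose and 8 fell in wild type and 5 rose and 7 fell in Ppard-/- mice (medians -0.12 and 0.02). Sfr1, a recombination accessory factor, rose (log2 1.03 and 1.21), and the helicase gene Wrn (-2.40 and -2.24) and Slx1b, a joint-cutting nuclease subunit (-1.53 and -1.05), fell. Of 15 genes associated with the Fanconi core, 6 rose and 3 fell in wild type and 8 rose and 3 fell in Ppard-/- mice (medians 0.08 and 0.30), led by Ercc1, which encodes a nuclease subunit also used in excision repair (2.07 and 1.92). Of 18 genes of the ATR branch and fork protection, 3 rose and 10 fell in wild type and 7 rose and 4 fell in Ppard-/- mice (medians -0.24 and -0.14). Rad9a, of the sliding clamp that activates ATR, rose (1.59 and 1.63), and Cdc25c fell in wild type (-1.37). Wee1, the kinase that restrains CDK1, was called in the test of the difference in UV response between the genotypes (1.12 ± 0.27, adjusted P value 0.0471 by edgeR).

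Of 14 chromatin genes of the ATM branch, 2 rose and 8 fell in wild type and 2 rose and 7 fell in Ppard-/- mice (medians -0.20 and -0.15), with Babam2, of the BRCA1-A complex, as the largest fall (-2.82 and -2.28). Of 12 end joining genes, 2 rose and 8 fell in wild type and 1 rose and 9 fell in Ppard-/- mice (medians -0.58 and -0.54). Of all genes, 34.5% rose and 36.5% fell in wild type, and 37.3% rose and 33.5% fell in Ppard-/- mice. Prkdc (-2.30 and -1.88) and Xrcc4 (-2.20 and -1.92), which encode the DNA-dependent kinase and the ligase scaffold, fell, and Xrcc5, which encodes Ku80, rose (0.88 and 0.89).

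The cell cycle lists stood beside these results, with the same shares of all genes (34.5% higher and 36.5% lower in wild type, 37.3% and 33.5% in Ppard-/- mice). Of 20 S-phase genes, 10 rose and 4 fell in wild type and 15 rose and 1 fell in Ppard-/- mice (medians 0.27 and 0.70). The largest rise in wild type was that of Rrm2, a subunit of ribonucleotide reductase (1.23 and 1.52). Of 16 G2 and M phase genes, 0 rose and 10 fell in wild type and 3 rose and 2 fell in Ppard-/- mice (medians -0.58 and 0.14), with Cenpf, a kinetochore gene, falling (-1.68 and -0.89). E2f1, of the S-phase list, was called in the test of the difference in UV response between the genotypes (1.08 ± 0.25, adjusted P value 0.0351 by edgeR). In that test 0.765% of all genes were called, 0.386% without mouse 61F and 0.780% without mouse 66F. The values of E2f1 without these mice are not given. After UV, 1 gene was called higher in Ppard-/- than in wild-type mice in each of the recombination, Fanconi, ATR-branch, ATM-branch and S-phase lists. The end joining, G2 and M phase and p53 lists held none, and 3.31% of all genes were called in that comparison. The mean level of the G2 and M phase list was 3.31, 4.22 and 5.42 (log2(cpm + 1), lowest, median and highest of 8) in unexposed and 3.36, 3.88 and 4.02 in UV-exposed wild-type mice, and 3.24, 3.94 and 4.74 and 3.62, 4.08 and 4.83 in Ppard-/- mice. The part of the share of dividing cells in the members' changes was not tested. Of 12 p53 targets, 10 rose in wild type and 12 in Ppard-/- mice (medians 2.06 and 2.16), and 0 fell in either.

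**Figure D4:**
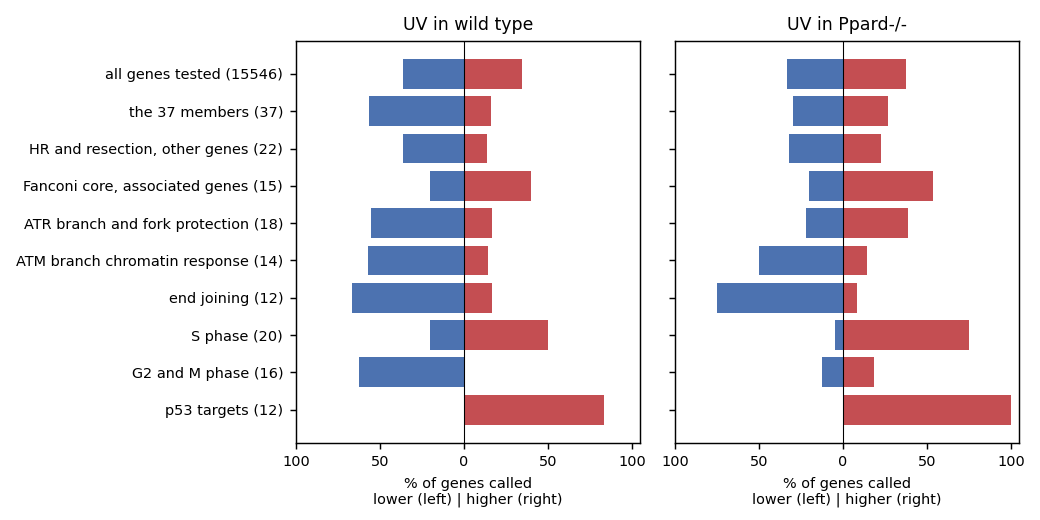
Percentage of genes called lower (to the left) and higher (to the right) after UV in wild type and Ppard-/- mice, for all genes tested, the 37 members and each pathway list, with the number of genes in parentheses. The members lean to the left in wild type, with 21 lower and 6 higher, and are near balance in Ppard-/- mice, with 11 lower and 10 higher.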

How the data were processed

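Epidermal mRNA of 32 mice, 1 library each, was sequenced by the authors as single reads from stranded libraries. They trimmed reads with cutadapt 1.8, removed ribosomal reads with fastq_screen, aligned with STAR 2.5.3a and counted with HTSeq 0.9.1. The deposited values are raw counts per Ensembl gene, and GRCm38 is the build named per the labels. The strand setting is not given in the sources used here. Symbols, exon lengths and coordinates came from GENCODE M21. Of the 37 names, 36 matched directly, and Claspn was taken as Clspn.

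Here, the 15546 genes that reached 1 cpm in any 1 mouse were scaled by TMM and fitted over all 8 groups with edgeR 4.0.16 (quasi-likelihood, R 4.3.3), with P values adjusted by Benjamini-Hochberg over all genes and a call at 0.05. Contrasts weighted both sexes equally. The SE given with each log2 fold change was worked back from the test, as its absolute value over the square root of the F statistic. Alternatives were limma 3.58.1 (limma-trend), DESeq2 1.42.0, RLE scaling, other filters, a fit of each genotype alone, sex as a covariate and leaving out each of the 32 mice. Values quoted per gene are TMM-scaled cpm. Pairs of mice in a group differed beyond counting noise (chi-square over degrees of freedom 21.2 to 148 in 48 pairs), so each mouse was 1 replicate. The members and lists were chosen with earlier results of these data known. Every member was named; full values were given for Atm, Atr, Chek1, Chek2, Brca1 and Brca2, for the 6 largest mean rises and 4 largest mean falls among members called in both genotypes with a mean of at least 10 counts, and for the 3 smallest P values between genotypes. Fanci was an exception, with its cpm in unexposed mice only and its UV change as a range over the alternatives. Of other lists, up to 2 genes per direction with the largest changes among those called were named. Any gene called in the test of the difference in UV response between the genotypes was named too. Genes of these lists called between the genotypes after UV were only counted. The values of 1 gene of these lists are not reported here.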

Additional observations from a re-analysis of the deposited data

Results flagged for a closer look

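Among 136 sets of 4 mice (17 named members in 8 groups), 9 held a mouse whose gap to the nearest other was over Dixon's critical share of the range, where about 1 in 20 is flagged by chance. The mouse lay above the other 3 in most of them: Atm in UV-exposed wild-type female 51F (9.38 cpm, others 7.16 to 7.39), Fanca in unexposed Ppard-/- female 62F (5.15 cpm, others 2.48 to 2.78), Fancc in unexposed wild-type female 63F (11.7 cpm, others 7.41 to 8.09), Mre11a in unexposed wild-type female 61F (25.2 cpm, others 20.6 to 21.3), Palb2 in UV-exposed wild-type male 32M (3.07 cpm, others 2.40 to 2.47) and Xrcc2 in UV-exposed Ppard-/- male 58M (25.1 cpm, others 9.98 to 12.1). It lay below for Brca1 in UV-exposed wild-type male 38M (2.91 cpm, others 5.84 to 6.0), Fancl in the same mouse (1.09 cpm, others 2.04 to 2.17) and Chek2 in UV-exposed wild-type female 57F (1.19 cpm, others 2.29 to 2.47). No explanation was tested.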

How the results depend on the processing

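Over 39 alternatives, 32 of which left out 1 mouse each, no called UV change of a member changed sign. The wild-type UV calls held in 993 of 1053 refits and the Ppard-/- calls in 811 of 819. Those lost were of Brca1, Claspn, Fancd2, Fance, Rad50 and Rad54b. Some members that were not called gained a call under alternatives. In wild type these were Fanci (lower, under 5 of 39), Palb2 (lower, 2) and Rmi2 (lower, 1). In Ppard-/- mice they were Blm (higher, under 9 of 39), Rad50 (lower, 4) and Rad54l (higher, 1). With a fold change over 1.5, 3 rather than 6 members rose in wild type, by construction. DESeq2 called 3 members in the test between the UV responses of the genotypes and 2 between the genotypes after UV, where edgeR called 0. Of all genes DESeq2 called 5.09% and 7.18% in these tests, against 0.765% and 3.31% by edgeR, and the cause was not tested. Leaving out 1 mouse gave 0 to 2 and 0 to 1 members, respectively: Palb2 was called without Ppard-/- female 52F, without wild-type male 54M and, with Bard1, without wild-type female 71F, and Xrcc3 after UV without 52F. In Ppard-/- females 7 to 12 members were called higher, the lowest without mouse 66F. The count lower in wild type was 16 to 23, the lowest without mouse 61F. Of members not called, 3 changed sign in some alternative for UV in Ppard-/- mice, 5 for the test between responses, 8 for the genotypes without UV and 9 after UV. With 8 mice per genotype and state, sparse members such as Rad51b had the widest errors, and the intervals cover the spread between mice of 1 experiment. No paired analysis was possible because the groups hold different mice.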
